A study of Ovis aries with 16 samples.

Results

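LOC101110918, LOC105607806 and LOC114118468 are 3 long non-coding RNA (lncRNA) loci of the sheep genome that hold genes of small RNAs within their bounds. They are 3 of the 2973 rows of the lncRNA table and of the 4920 rows of the 4 deposited tables (miRNA, snoRNA, snRNA and lncRNA). The loci were chosen from earlier results on these libraries, for their lower values in livers of sheep exposed to bisphenol A (BPA) and, for LOC101110918 and LOC114118468, also for the difference of that effect between liver and muscle. Their values in those contrasts are therefore given as a description, without a test. The difference between tissues uses the muscle libraries too, so for LOC101110918 and LOC114118468 the muscle values are also described without a test.

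Small RNA libraries came from liver and from vastus lateralis muscle of 8 female Suffolk sheep, so each animal gave 1 library of each tissue. In the BPA groups (liver and muscle of animals 910, 918, 977 and 984) the mothers had been given BPA, a building block of polycarbonate plastic that can bind oestrogen receptors, by daily injection under the skin. The dose was 0.5 mg per kg in corn oil from day 30 to day 90 of gestation. In the control groups (liver and muscle of animals 902, 908, 924 and 928) the mothers had received corn oil alone. The offspring themselves received no BPA and were sampled at about 21 months of age. Animals of all groups had been fasted for 48 hours and were taken 24 hours after the second of 2 prostaglandin injections 11 days apart. The question was how BPA before birth relates to non-coding RNA in adult tissues.

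A lncRNA locus can host smaller non-coding RNAs. Small nucleolar RNAs (snoRNAs) guide chemical modification of ribosomal and spliceosomal RNA, and many are cut from the introns of a host transcript. Small nuclear RNAs (snRNAs) form the core of the spliceosome. Transfer RNAs (tRNAs) carry amino acids to the ribosome, are transcribed by RNA polymerase III from their own promoters, and give rise to shorter fragments that small RNA libraries can capture. A small RNA library thus samples what lies inside such a locus as well as the long transcript.

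The 4 control livers stood apart from the other 12 libraries in their mix of RNA classes. snRNA reads numbered 0.137 to 0.279 per 100 miRNA reads in BPA livers and 12.4 to 41.2 in control livers, against 0.180 to 0.756 in BPA muscle and 0.246 to 0.336 in control muscle. The control livers also had the fewest reads, 159650 to 335387 over the 4 tables, whereas BPA livers had 710101 to 1712187. Muscle libraries had 1271201 to 2146593 reads in BPA animals and 938684 to 1144596 in controls. The tissue labels fitted their marker miRNAs. Of the 4 hepatocyte markers, 2 were measured (MIR194 and MIR148A), and together they made up 11109 to 19174 of each 100000 miRNA reads in BPA livers and 12741 to 15926 in control livers, against 201 to 366 in muscle. The only measured one of 8 striated muscle markers, MIR133, was at 33.2 to 166 in BPA livers, 34.5 to 217 in control livers and 43583 to 57407 in muscle. Leukocyte MIR150 was at 67.0 to 134 in BPA livers and 56.5 to 154 in control livers. Endothelial MIR221 was at 118.5 to 209 in BPA livers and 96.8 to 219 in control livers. The fibroblast and smooth-muscle markers MIR143 and MIR199A summed to 7476 to 15363 in BPA livers and 6906 to 12169 in control livers. No erythroid marker of 3 was among the measured miRNAs. In bulk tissue, fewer cells of a type and less RNA per cell cannot be told apart.

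In the reference gene table (assembly ARS-UI_Ramb_v3.0, used for names and nesting only) LOC101110918 lies on chromosome 3 and holds 2 snoRNA genes, LOC114114248 and LOC114114258. It has 0 tRNA genes among the 5 genes on either side, and its next neighbours are MED22, a subunit of the Mediator complex, and DIPK1B. LOC105607806, on chromosome 11, holds a glycine tRNA gene (TRNAG-GCC) and the snRNA gene LOC114117043, and it overlaps HES7, a transcriptional repressor of the segmentation clock. It sits in a run of tRNA genes, with 4 among the 5 genes before it and 2 among the 5 after it, which PER1, a gene of the circadian clock, follows. LOC114118468, on chromosome 15, holds lysine tRNA genes (both TRNAK-UUU) and a phenylalanine tRNA gene (TRNAF-GAA), with 3 tRNA genes among the 5 before it and 1 among the 5 after it. These tRNAs have many copies: the gene table lists 61 genes named TRNAG-GCC, 39 named TRNAK-UUU and 49 named TRNAF-GAA. Reads of near-identical copies can be split or misplaced by the counting, so the origin of tRNA-like reads at these loci is uncertain. The gene table gives no strand, and strand use in the counting is not given in the sources used here.

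LOC101110918 was far lower in BPA livers than in control livers. Its deposited normalized count was 27.0, 11.1, 15.6 and 7.59 in BPA livers 910, 918, 977 and 984, against 720, 1916, 520 and 1084 in control livers 902, 908, 924 and 928. In reads per 100000 miRNA reads, the lowest control liver was 29.6 times the highest of the other 12 libraries, muscle included. The mean deposited counts were 15.3 ± 8.43 in BPA livers and 1060 ± 617 in control livers (SD, n = 4 each), a log2 fold change of -5.99 ± 0.55 (SE). The spread within each liver group was wide, at 55.1% of the mean in BPA livers and 58.2% in controls, and the groups did not overlap. In muscle the counts were 11.9, 17.3, 12.8 and 25.4 in BPA animals 910, 918, 977 and 984, against 14.7, 16.4, 17.97 and 14.4 in controls 902, 908, 924 and 928. The muscle groups overlapped, and animal 984 was the highest.

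The reads of LOC101110918 were nearly all accounted for by the snoRNA rows nested in it. Over the 16 libraries the locus had 3101 reads and the rows of its snoRNA genes together had 3088, or 99.6%. The counts were equal in 6 libraries, and the locus exceeded the nested rows by at most 2 reads in any library. In livers the nested rows had 127 of 130 reads in BPA animals and 2826 of 2828 in controls. In muscle they had 88 of 94 reads in BPA animals and 47 of 49 in controls. That a read entered both tables was inferred from these equal counts alone, since the assignment of single reads was not available here.

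**Figure D1:**
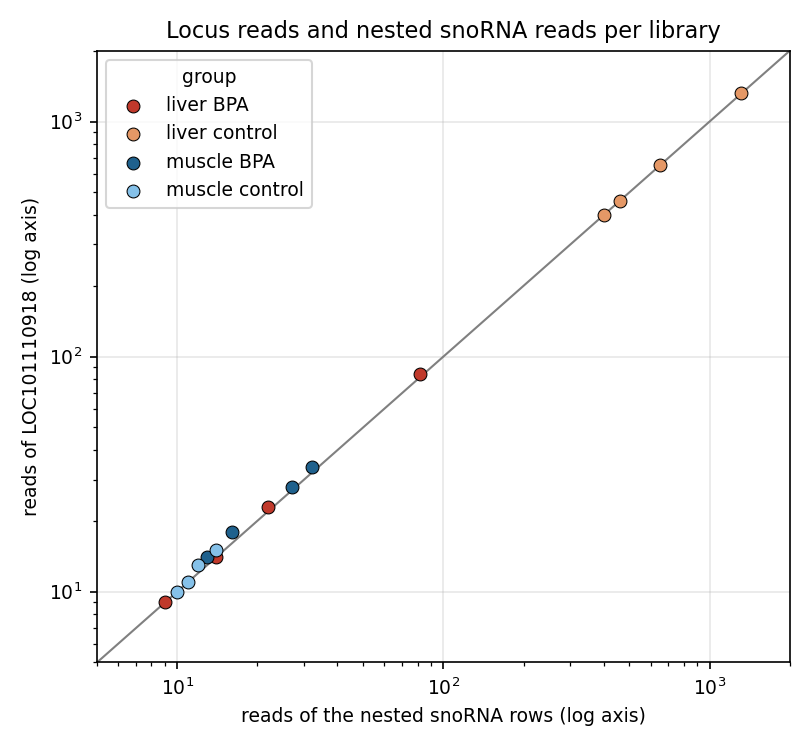
Reads of LOC101110918 (y axis, log scale) against the summed reads of its nested snoRNA rows (x axis, log scale) in each of the 16 libraries, coloured by group, with the line of equal counts. Every point lies on or just above the line, and the 4 control livers lie at or above 402 reads while the other 12 libraries lie at or below 84.

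Of the nested snoRNA genes, LOC114114248 carried the difference. It had 72, 7, 19 and 7 reads in BPA livers 910, 918, 977 and 984, against 452, 1314, 401 and 649 in control livers 902, 908, 924 and 928, although the BPA livers were sequenced more deeply. Its deposited normalized count averaged 17.9 ± 10.3 in BPA livers and 668 ± 310 in control livers (SD, n = 4 each), and the groups did not overlap. Of 212 snoRNAs, 21.7% had every BPA liver below every control liver. LOC114114248 took 0.0447% to 0.230% of all snoRNA reads in BPA livers and 4.87% to 12.4% in control livers. LOC114114258 had 2 to 10 reads in BPA livers and 1 to 7 in control livers, and its groups overlapped. LOC114114248 thus gave 105 of the 127 nested reads in BPA livers and 2816 of 2826 in control livers.

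The locus and LOC114114248 had different fold changes on the deposited scales, on which the lncRNA and snoRNA tables have size factors of their own. In liver the log2 fold change was -5.23 ± 0.52 for LOC114114248 and -5.99 ± 0.55 for the locus. In muscle it was -0.53 ± 0.33 for LOC114114248 and 0.03 ± 0.28 for the locus. The reads differed in part as well, since LOC114114248 had 105 of the 130 reads of the locus in BPA livers and 70 of 94 in BPA muscle. On 1 common scale, reads per 100000 miRNA reads, the log2 ratio of BPA over control means in liver was -7.40 for LOC114114248 and -7.04 for the locus. In muscle that ratio was 0.17 for LOC114114248 and 0.42 for the locus. Since its reads are largely those of the locus, LOC114114248 is described in muscle without a test. Of the 162 snoRNAs fitted there, 32.7% were called at an adjusted p below 0.05 by limma (6.17% lower in BPA muscle). The called snoRNAs were 43 higher and 10 lower as deposited, and 60 higher and 2 lower with miRNA size factors. By edgeR on whole reads 40 of 113 were higher and 32 lower. The muscle groups of LOC114114248 overlapped, at 7.03 to 14.8 in BPA animals and 13.2 to 17.0 in controls, while 8.64% of snoRNAs had every BPA value below every control value. LOC114114258 had a mean below the minimum of 5 in both tissues and was not tested.

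LOC105607806 followed the same order of groups. Its deposited normalized count was 30.8, 19.0, 31.8 and 41.3 in BPA livers 910, 918, 977 and 984, against 742, 2217, 2300 and 2911 in control livers 902, 908, 924 and 928. Here control liver 902 was the lowest of its group, whereas for LOC101110918 it was 924. The means were 30.7 ± 9.15 in BPA livers and 2043 ± 921 in control livers (SD, n = 4 each), a log2 fold change of -5.89 ± 0.52 (SE), and the groups did not overlap. In reads per 100000 miRNA reads, the lowest control liver was 47.6 times the highest of the other 12 libraries. In muscle the deposited counts were 17.9, 47.5, 14.9 and 47.0 in BPA animals 910, 918, 977 and 984, against 17.4, 4.37, 6.91 and 25.9 in controls 902, 908, 924 and 928. BPA animals 918 and 984 were above all controls and the other BPA animals were within the control range.

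No reads of LOC105607806 could be matched to its nested snRNA gene. LOC114117043 is listed in the snRNA table at 0 reads in each of the 16 libraries. At 0 of 195955 snRNA reads, 172678 of them from control livers, its share of snRNA reads could be up to 0.00153% (counting error only). By group that limit was 0.0429% in BPA livers, 0.00174% in control livers, 0.0276% in BPA muscle and 0.0554% in control muscle. The locus itself had 216 reads over the 4 BPA livers and 5522 over the 4 control livers. Its muscle reads numbered 182 in BPA animals and 40 in controls. Values of the nested glycine tRNA gene were not analysed here, so the part of tRNA reads in the locus was not tested.

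LOC114118468, with its lysine and phenylalanine tRNA genes, had a smaller difference between the liver groups. Its deposited normalized count was 253, 130, 153 and 93.6 in BPA livers 910, 918, 977 and 984, against 2833, 3348, 2737 and 3183 in control livers 902, 908, 924 and 928. The control livers lay close together, with an SD of 9.53% of the mean, whereas the BPA livers varied by 43.3%. The means were 158 ± 68.3 in BPA livers and 3025 ± 288 in control livers (SD, n = 4 each), a log2 fold change of -4.34 ± 0.42 (SE). The groups did not overlap. In reads per 100000 miRNA reads, the lowest control liver was 10.9 times the highest of the other 12 libraries. In muscle the deposited counts were 196, 228, 224 and 388 in BPA animals 910, 918, 977 and 984, against 224, 170, 216 and 254 in controls 902, 908, 924 and 928. Animal 984 was again the highest and the remaining BPA animals were within the control range.

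From the lowest log2 fold change up, these loci had ranks 1, 2 and 4 among the 124 lncRNA rows tested in liver. Between them at rank 3 was LOC101112291 at -4.69 ± 0.46, and just below them at rank 5 was LOC105608205 at -3.94 ± 0.43. In all, 24 of the 124 rows were lower and 20 higher in BPA livers at an adjusted p below 0.05 (limma), or 35.5% called. Rows in which every BPA liver was below every control liver made up 20.2%, and the 3 loci were among them by choice. With the size factors of the miRNA table, 5 rows were higher and 52 lower and the median log2 fold change of all rows was -1.14, against 0.06 as deposited. With TMM factors 32 were higher and 19 lower and the median was 0.43. The log2 fold changes of LOC101110918, LOC105607806 and LOC114118468 were -6.98, -6.91 and -5.37 with miRNA size factors, and -5.60, -5.50 and -3.94 with TMM factors.

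Within each table the authors' factors put the libraries of a tissue on 1 scale, but not the tissues. Reads per 100000 miRNA reads of the same library place the 16 libraries side by side, as a description that rests on the miRNA total. LOC101110918 was at 3.31 ± 2.004 in BPA livers and 437 ± 173 in control livers, and at 3.26 ± 1.64 in BPA muscle and 2.43 ± 0.268 in control muscle. LOC105607806 was at 6.39 ± 1.54 in BPA livers and 840 ± 411 in control livers, and at 6.02 ± 3.64 in BPA muscle and 2.06 ± 1.46 in control muscle. LOC114118468 was at 33.9 ± 16.7 in BPA livers and 1346 ± 478 in control livers, and at 50.5 ± 24.6 in BPA muscle and 33.0 ± 4.21 in control muscle (SD, n = 4 for each group). For each locus the control livers were highest and separate from all other libraries. The other 3 groups overlapped, except that for LOC105607806 every BPA liver was above every control muscle library.

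**Figure D2:**
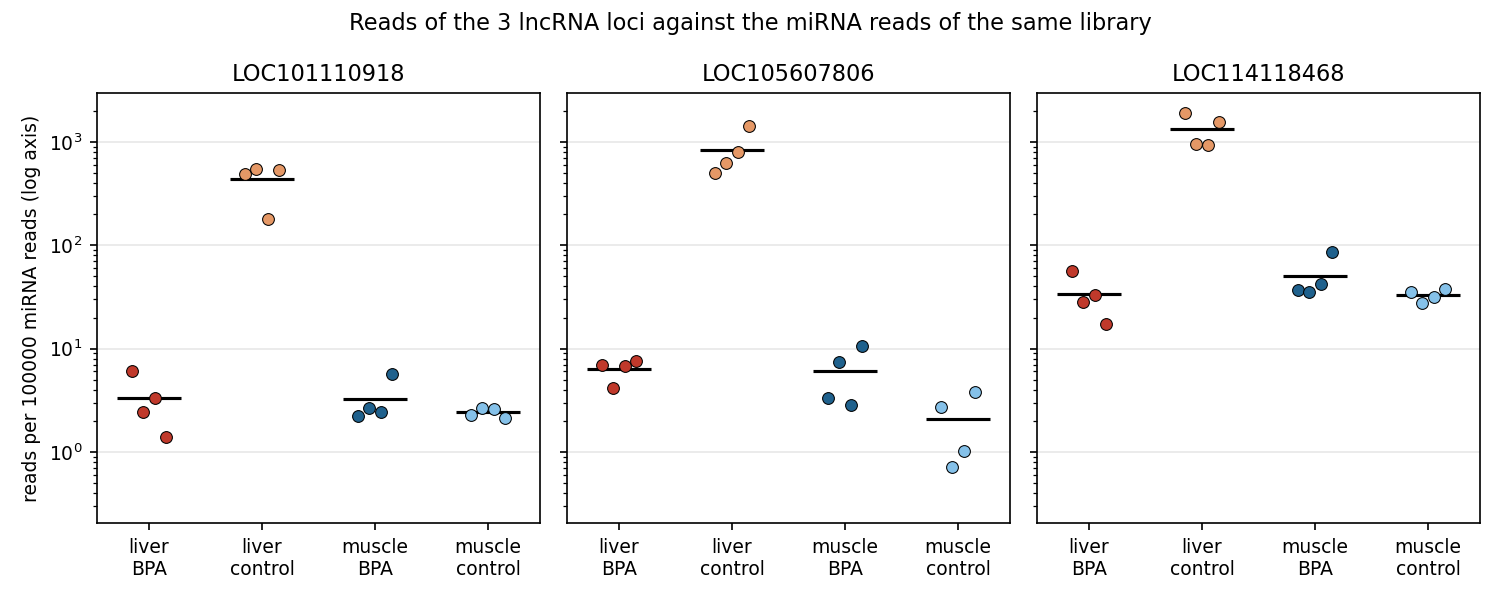
Reads per 100000 miRNA reads (y axis, log scale) of LOC101110918, LOC105607806 and LOC114118468 in the 4 groups; points are single animals and bars are group means. The control livers lie at 180 and above for LOC101110918, 502 and above for LOC105607806 and 948 and above for LOC114118468, while the other 12 libraries reach at most 6.07, 10.6 and 87.1.

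On this scale the tissues can be set side by side within each treatment. Muscle of BPA animals was at 0.984 times BPA liver for LOC101110918, 0.943 times for LOC105607806 and 1.49 times for LOC114118468. Control muscle was at 0.00556, 0.00245 and 0.0245 times control liver for LOC101110918, LOC105607806 and LOC114118468. The BPA effect in muscle minus that in liver was 6.02 ± 0.61 log2 units for LOC101110918, 7.16 ± 0.78 for LOC105607806 and 4.57 ± 0.47 for LOC114118468 (SE, limma, deposited scale). Of 146 lncRNA rows, 28.8% were called in this interaction, 17.1% with a BPA effect that was higher in muscle than in liver.

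The 3 loci together held 0.166% to 0.341% of all lncRNA reads in BPA livers and 9.48% to 15.9% in control livers, against 0.0423% to 0.0910% in BPA muscle and 0.0302% to 0.0443% in control muscle. Total lncRNA reads per 100 miRNA reads were 18.3 ± 2.31 in BPA livers and 19.8 ± 2.06 in control livers (SD, n = 4 each). With size factors recomputed without the 3 loci, their log2 fold changes in liver were -6.04, -5.95 and -4.40, and 44 rows were called, as many as with the deposited factors. These factors are medians over rows, so leaving out 3 rows could move them little.

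**Figure D3:**
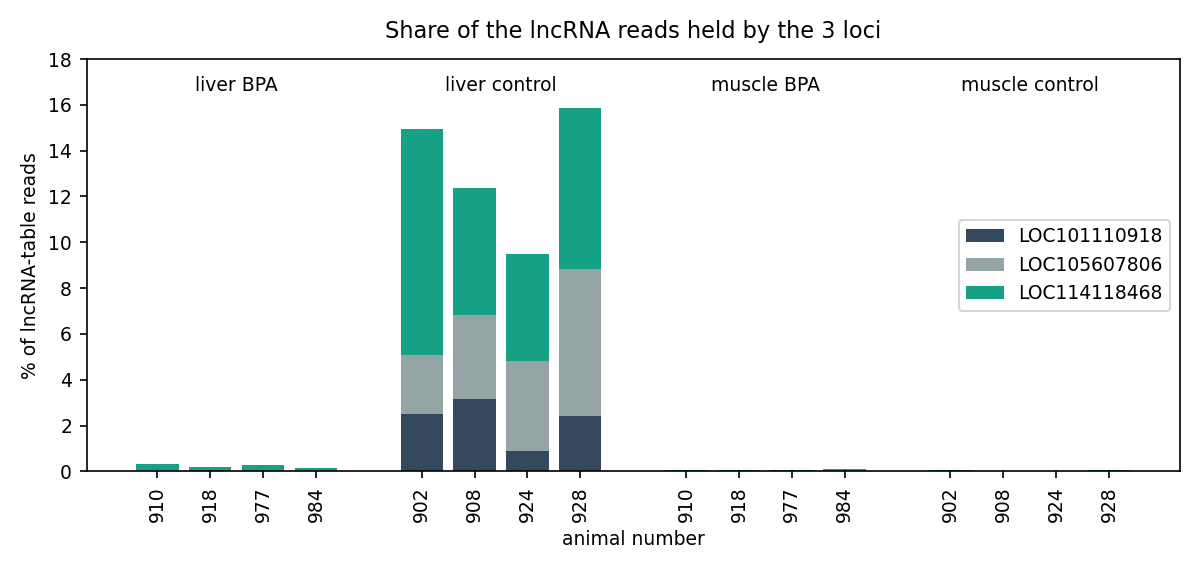
Share of all reads in the lncRNA table that fell on each of the 3 loci (stacked bars, y axis in percent, from 0) in each library, by group and animal number. The control livers reach 9.48% to 15.9% in sum, and each of the other 12 libraries stays at or below 0.341%.

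In muscle, LOC105607806 did not pass the test. Its log2 fold change was 1.26 ± 0.56 (95% interval 0.03 to 2.501, limma, BH-adjusted p = 0.284, unadjusted 0.0459). For LOC101110918 the log2 fold change was 0.03 ± 0.28, and for LOC114118468 it was 0.22 ± 0.25 (SE), both as a description. Of 151 rows tested in muscle, 6 were higher and 2 lower, or 5.3% called (3.97% higher and 1.32% lower). In 6.62% of rows every BPA muscle library was above every control, in 4.64% below, and the groups of the 3 loci overlapped. LOC105607806 was not called by edgeR or DESeq2 either. By TMM factors 8 rows were higher and 0 lower. Per 100000 miRNA reads, the means in muscle differed between BPA animals and controls by 0.828 for LOC101110918, by 3.96 for LOC105607806 and by 17.5 for LOC114118468. For LOC105607806 the exact permutation p was 0.114, or 0.171 adjusted by Benjamini-Hochberg over the 3 loci. Unadjusted, 4 against 4 allows a two-sided p of 0.0286 at the lowest. Without BPA muscle 984 the differences were 0.0147 for LOC101110918, 2.45 for LOC105607806 (exact permutation p = 0.229, adjusted 0.343) and 5.27 for LOC114118468. Animal 984 also had the most snRNA reads of any muscle library, at 0.756 per 100 miRNA reads, and the most snoRNA reads, at 2.67. Whether that had a part in its values at the loci was not tested. Without control 928, the difference of LOC105607806 had an exact permutation p of 0.0571 (adjusted 0.0857). Unadjusted, that is the smallest that 4 against 3 allows.

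The labels give each library a numeric code, and what it stands for is not stated. In muscle all BPA codes lie above all control codes, so code and treatment cannot be told apart. In liver, codes up to 79 held BPA livers 977 and 984 and control liver 902, and higher codes separated the treatments. Within them LOC101110918 was at 7.59 to 15.6 in the BPA livers and 720 in the control, a difference of -5.92 log2 units. LOC105607806 was at 31.8 to 41.3 in the BPA livers and 742 in the control, a difference of -4.32. LOC114118468 was at 93.6 to 153 in the BPA livers and 2833 in the control, a difference of -4.55. This range of codes was chosen after the values were seen, and with 1 control it allows no test. Code and treatment cannot be told apart within it either.

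The 3 loci varied together in part. Across the 16 libraries Pearson's r of log2(value + 1) was 0.98 for LOC101110918 with LOC114118468, 0.94 for LOC101110918 with LOC105607806 and 0.93 for LOC105607806 with LOC114118468, which mostly restates the high control livers. After each group's mean was taken off, r was 0.76, 0.20 and 0.36 for these pairs over 16 libraries. The r before group means were taken off also crosses tissues, which the deposited factors do not put on 1 scale. Libraries share their depth and size factor across loci, so all these r are descriptions. For these deviations in liver alone, LOC101110918 with LOC114118468 had an r of 0.81, and LOC105607806 had 0.16 with LOC101110918 and 0.0095 with LOC114118468 (8 libraries). In muscle alone, LOC101110918 with LOC114118468 had an r of 0.71, and LOC105607806 had 0.33 with LOC101110918 and 0.70 with LOC114118468 (8 libraries).

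Most other lncRNA loci that hold small RNA genes did not show this pattern. Of 80 such rows in the gene table, 24 had a mean of at least 5 in liver, and 3 of them rose, 2 fell and 19 did not pass (limma). Over all 124 rows tested in liver, 16.1% rose and 19.4% fell, the chosen loci among the latter. The 3 loci were chosen for their falls, so their contrast with the other hosts is a description. The median log2 fold change of the 24 other hosts was 0.05, against 0.06 over all 124 rows and -5.89 over the 3 chosen loci. With miRNA size factors 0 rose and 8 fell, with a median of -0.86, and with TMM factors 4 rose and 2 fell, with a median of 0.42. Of 6 other loci with a nested tRNA gene, 2 rose and 0 fell as deposited. One of them, LOC114118845, holds a phenylalanine tRNA gene of the same name as LOC114118468 does, TRNAF-GAA. It was at 18.8 ± 3.85 in BPA livers and 6.55 ± 3.88 in control livers (SD, n = 4 each; log2 fold change 1.56 ± 0.49, limma adjusted p = 0.0233). With miRNA size factors it was at 0.65 (adjusted p = 0.351) and with TMM factors at 1.92 (adjusted p = 0.0108). The other was LOC105611804, with a cysteine tRNA gene (TRNAC-GCA), at 1.64 ± 0.53 (limma adjusted p = 0.0253) as deposited, 0.71 (adjusted p = 0.241) with miRNA size factors and 2.01 (adjusted p = 0.00902) with TMM factors.

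Of 13 other loci with a nested snoRNA gene, 0 passed in liver (limma), with log2 fold changes from -1.35 to 1.14. At an unadjusted p below 0.05 there were 3, and edgeR and DESeq2 each called 1. Their reads too were mostly those of the nested rows. Among 13 loci tested in either tissue that hold snoRNA genes only, LOC101110918 included, the nested rows had 90% to 110% of the locus reads in 9. The 2 host loci that fell in liver were LOC114109042 (-2.96 ± 0.56, limma adjusted p = 0.00218) and LOC106991099 (-1.73 ± 0.51, adjusted p = 0.0202). LOC114109042 had 98 reads over the 16 libraries, and the row of its nested snRNA gene LOC114109186 had 93. LOC106991099 holds MIR29A, a miRNA known for restraining collagen genes. It had 145 reads and the MIR29A row 71102, so its fall is not a measure of MIR29A. The mean was 1.03 in BPA livers and 14.8 in control livers for LOC114109042, and 4.07 and 16.3 for LOC106991099. Both loci thus reached the minimum mean of 5 only through the control livers. Both also fell with miRNA size factors and with TMM factors. The last of the 3 that rose was LOC105605445, which holds MIR221 (1.56 ± 0.46, limma adjusted p = 0.0203, 0.53 with an adjusted p of 0.214 by miRNA size factors, and 1.96 with an adjusted p of 0.00648 by TMM factors). In muscle 2 of 24 such loci rose and 0 fell, both hosts of snoRNA genes. Of all 151 lncRNA rows tested in muscle 3.97% rose, and of the 162 snoRNA rows 26.5%. The 2 hosts that rose were LOC101116687 at 2.75 ± 0.25 (limma adjusted p = 1.99e-05) and LOC114116957 at 1.32 ± 0.21 (adjusted p = 0.00223). Both rose also with miRNA size factors and with TMM factors. Nested rows had 53.9% of the locus reads for LOC101116687 and 99.9% for LOC114116957. The part of the snoRNA rise in these values was not tested.

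**Figure D4:**
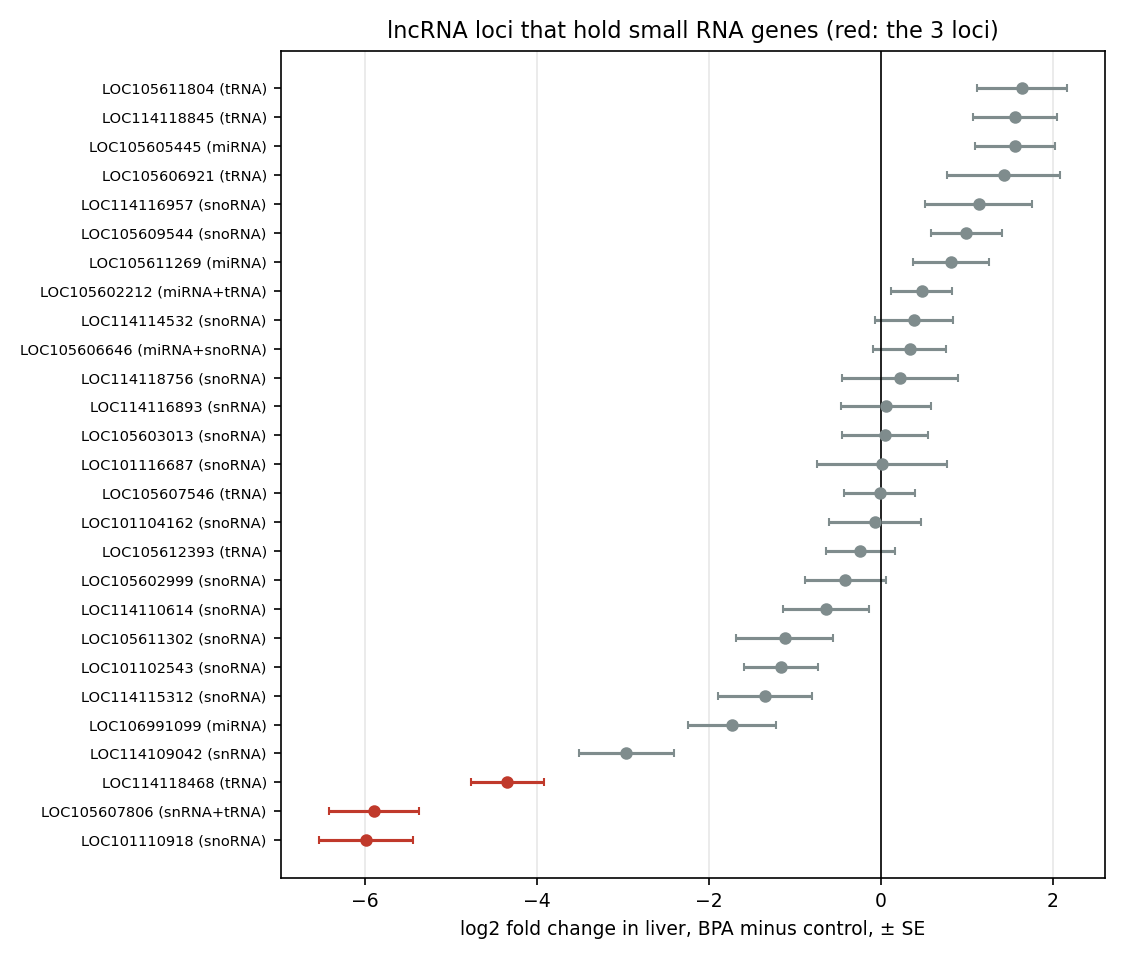
Log2 fold change in liver (x axis, BPA minus control, points with SE bars, n = 4 livers each) of the 27 tested lncRNA loci that hold small RNA genes, with the class of nested gene in brackets. The chosen loci (red) lie between -5.99 and -4.34, and the other 24 (grey) between -2.96 and 1.64.

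Among 145 other lncRNA rows with a mean of at least 5, those most like each locus over the 16 libraries were largely the other chosen loci. Outside them, LOC105608205 was among the nearest 3 rows for LOC101110918 (Pearson r = 0.95) and LOC114118468 (r = 0.94). It was at 3.30 ± 1.04 in BPA livers and 68.8 ± 30.5 in control livers, and at 5.57 ± 3.43 in BPA muscle and 4.70 ± 2.63 in control muscle (SD, n = 4 each). LOC114117615 was near LOC105607806 (r = 0.91), with 2.08 ± 2.40 in BPA livers and 62.9 ± 57.6 in control livers. In muscle it was at 1.26 ± 0.69 in BPA animals and 1.40 ± 1.17 in controls. LOC114117615 and LOC105608205 thus reached the minimum mean of 5 over the 16 libraries only through the control livers. Outside them LOC105608205 lay near that minimum, with group means of 3.30 to 5.57. LOC101112291 was near LOC114118468 (r = 0.94), with 4.91 ± 2.76 in BPA livers and 145 ± 46.7 in control livers. In the gene table LOC101112291 holds no small RNA gene, and the table has no entry for the other rows. As for the pairs of loci, r over the 16 libraries mostly restates the high control livers. It also crosses tissues, which the deposited factors do not put on 1 scale, so these r and ranks are descriptions.

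Among 265 snoRNA and snRNA rows over the 8 livers, the row most like LOC101110918 was its own nested LOC114114248 (r = 0.99). The same snoRNA was also the most like LOC114118468 (r = 0.98) and at rank 3 for LOC105607806 (r = 0.97). With liver groups so far apart, r over the 8 livers mostly restates the group difference for which the loci were chosen. LOC114111313, an snoRNA second for LOC101110918 and LOC114118468 (r = 0.97 for both), was at 7.88 ± 1.27 in BPA livers and 35.4 ± 7.15 in control livers. The snoRNA LOC114110520, at rank 3 for LOC101110918 (r = 0.95), was at 17.5 ± 4.39 in BPA livers and 71.98 ± 19.97 in control livers. For LOC105607806 the nearest was the snoRNA LOC114108878 (r = 0.98), at 8.90 ± 2.55 in BPA livers and 73.4 ± 23.2 in control livers, followed by LOC114111819 (r = 0.97), at 85.1 ± 11.8 in BPA livers and 169 ± 22.2 in control livers. LOC114115947 was the snRNA row in these ranks (rank 3 for LOC114118468, r = 0.97), at 27.3 ± 18.8 in BPA livers and 265 ± 89.9 in control livers (SD, n = 4 each). The liver values of these rows and of the 3 loci come from the same libraries, in which snRNA reads per miRNA read differed by group as given above. The part of that difference in these values was not tested.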

How the data were processed

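The values deposited by the authors are a signal: reads per transcript divided by a library factor, in 4 tables. cutadapt 3.2, STAR 2.6.0c and featureCounts 1.6.1 are listed, without order, in the submitters' processing notes. No source used here gives the build, the annotation or how the factors were made. In each library 100% of the deposited values were whole multiples of 1 step (tolerance 0.001), so reads were recovered by division. Size factors differ by table and tissue.

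Groups were compared with limma (version 3.58.1, under R 4.3.3), its variance prior following the mean, on log2 of the deposited value plus 1, which understates changes of low rows. A row entered with a mean of at least 5 over the fitted libraries. Two-sided p-values were adjusted by Benjamini-Hochberg over each table, at a threshold of 0.05. edgeR 4.0.16 and DESeq2 1.42.0 were run on recovered lncRNA and snoRNA reads only. In muscle, the reads of the 3 loci per miRNA read were compared by exact permutation (scipy 1.17.1, 70 assignments), adjusted over the 3 loci. Only the p-values of LOC105607806 are given, since the other loci are described without a test. The lncRNA fit in muscle, tested on simulated data of 158 rows, called 30% of 10 simulated log2 changes of 1 and 75% of 4 of size 2, too few for a firm rate. The members, lists and tests were chosen with earlier results of these data known. Of lncRNA rows with reads, 48.2% were in the gene table, where 1 row per symbol was matched. The named rows were the members, their nested genes, the 3 most alike rows per table set, and called hosts of small RNA genes. The last, and the rows ranked beside the members in liver, were named after their values were seen.

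Animal numbers pair liver and muscle libraries, because each number is 1 sheep. Deviations of the 2 tissues of an animal from their group means correlated by -0.24 to 0.13. No pair of libraries in a group was as close as counting noise alone allows (lowest chi-square 4.56 times its degrees of freedom).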

Additional observations from a re-analysis of the deposited data

Results flagged for a closer look

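Of 40 sets of 4 libraries examined (the 3 loci and the nested snoRNAs, in each group and on both scales), 6 held a library far from the other 3. Chance flags about 5% of such sets, and the scales share their reads. In BPA muscle 984, LOC114118468 had a deposited normalized count of 388 and 87.1 reads per 100000 miRNA reads, and LOC101110918 had 5.70 reads per 100000 miRNA reads. In control liver 924, LOC101110918 was at 180 reads per 100000 miRNA reads, the lowest of its group. In control liver 902, the nested snoRNA LOC114114258 was at a deposited normalized count of 6.82 and at 7.42 reads per 100000 miRNA reads, from 7 reads.

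The BPA effect differed between muscle and liver by 6.02 log2 units for LOC101110918, 7.16 for LOC105607806 and 4.57 for LOC114118468. LOC101110918 and LOC114118468 were chosen with this difference in view and LOC105607806 for its liver values, which enter it, so no test is given.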

How the results depend on the processing

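Of 170 values of single loci or nested snoRNAs under the alternatives, 4 changed sign, each for LOC101110918 in muscle, where its log2 fold change was 0.03. It was -0.0051 without BPA 918, -0.18 without BPA 984, -0.0064 without control 902 and -0.016 without control 928, in a range of -0.18 to 0.16 on leaving out 1 library. For LOC114114248 in muscle the log2 fold change ranged from -0.76 by edgeR to -0.08 with miRNA size factors, as a description. No log2 fold change of the 3 loci in liver or in the interaction changed sign under any alternative run. In liver they ranged from -6.98 to -5.60 for LOC101110918, -6.91 to -4.32 for LOC105607806 and -5.37 to -3.94 for LOC114118468. Called lncRNA rows in liver numbered 44, 24 with a mean of at least 20, where fewer rows were tested, and 27 to 49 on leaving out 1 library, the lowest without control 928. By edgeR they were 7 higher and 23 lower. In the interaction 42 rows were called, 40 with the replicate block of animals, 20 with no filter, and 20 to 46 without 1 animal (20 without 977 and 22 without 928). In the interaction 37 were higher and 1 lower with miRNA size factors, against 25 and 17 as deposited. Called snRNAs in muscle numbered 0 of 34 by limma, also at an unadjusted p below 0.05, with 0 to 8 on leaving out 1 library (8 without BPA 977, where the cause was not tested). Count tests were not run on snRNAs. Levels in muscle rest on 4 to 77 reads per library for LOC105607806 and 10 to 34 for LOC101110918, which limits what could be detected there.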
